A study of Mus musculus with 6 samples.

Results

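Heterotrimeric G proteins carry the signal of G protein-coupled receptors (GPCRs) into the cell. The 52 genes described here encode their alpha, beta and gamma subunits and the regulators of G protein signalling (RGS proteins). They were chosen by symbol: of 19938 genes with a probe set annotated to a single gene, 15 encoded an alpha subunit, 5 a beta subunit, 12 a gamma subunit and 20 an RGS protein. Rgs3 had 2 probe sets, so the members took up 53 probe sets, and the brighter one stands for the gene. The probe set for Gnas, the stimulatory alpha subunit, is annotated to another gene as well, so Gnas is not analysed here.

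RNA came from immortalized neural precursor-like cells of C57BL/6J mouse embryo brain taken at day 13.5. Cells with a homozygous deletion of Lgi1 (knock-out, n = 3 arrays) were compared with Lgi1 wild-type cells (n = 3 arrays); immortalized cells were grown in RPMI with 1% FBS. Lgi1 encodes a secreted synaptic protein known from inherited epilepsy. The samples are titled as biological replicates, but the labels do not say how many embryos or lines stand behind a genotype. The p-values therefore measure only the spread between these arrays, and a difference between lines cannot be told apart from one between genotypes.

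A receptor bound by its ligand loads the alpha subunit with GTP, and the alpha subunit and the beta-gamma pair then act on effectors separately. Alpha subunits of the Gi/o family inhibit adenylyl cyclase, Gs and Golf stimulate it, Gq and G11 activate phospholipase C beta, and G12 and G13 act on the actin cytoskeleton. RGS proteins speed up GTP hydrolysis by alpha subunits, mostly of the Gi/o and Gq families, and so end the signal. In neural precursors these pathways carry signals from lipid, purine and endothelin receptors.

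Each value is a log2 expression value of a probe set. Genes past an adjusted p of 0.05 (limma, Benjamini-Hochberg over all 19938 genes) are described as changed, and as having risen or fallen. Differences are knock-out minus wild type. Background was taken as 5.68, the 95th percentile of the mean values of 1194 olfactory and vomeronasal receptor genes. A gene at or under it in both genotypes is called not above background. Array medians ran from 6.36 to 6.41.

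The arrays of the genotypes differed in more than Lgi1. The targeted gene itself lay at background in both genotypes (4.77 ± 0.168 in wild type and 4.55 ± 0.0211 in knock-out, SD, n = 3), so it gives no check of the labels. Xist, which is expressed from the inactive X chromosome of female cells, was at 4.64 in wild type and 12.44 in knock-out, and the Y-linked Eif2s3y at 10.19 and 4.67, so sex and genotype cannot be told apart. Of 10 neural progenitor markers 5 fell and none rose. Sox2 went from 11.26 to 5.35, under background, so the knock-out arrays lacked this defining marker of neural precursors. Of 10 fibroblast and meningeal markers 9 rose and none fell, and their summed level on a linear scale went from 2995 to 3742 in wild type to 16435 to 18346 in knock-out. In such bulk samples fewer cells of a type and less RNA per cell cannot be told apart. The part of these differences in the results below was not tested.

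Of the 52 members, 22 changed, which is 42.3% of them; 11 rose and 11 fell. Among all genes 31.6% changed, 14% rising and 17.6% falling. The median difference of the members was 0.01, against -0.01 for all genes, and their median absolute difference was 0.16, against 0.11. The 5 members that changed at least 2-fold were Gnai1 and Gng2, which fell, and Gnao1, Rgs4 and Rgs5, which rose; 5.32% of all genes changed that much. Wild-type and knock-out arrays did not overlap for 28 members (53.8%), among them all 22 that changed, while 42.3% of all genes showed no overlap. Only 29 of the members were above background in a genotype. As a description, 19 of the 29 with a mean over the 6 arrays above background changed (65.5%), and 49.3% of all genes past that filter did. Among these 19, Rgs4 and Rgs5 got past the filter only because their knock-out arrays were high, so this share is no independent result.

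**Figure D1:**
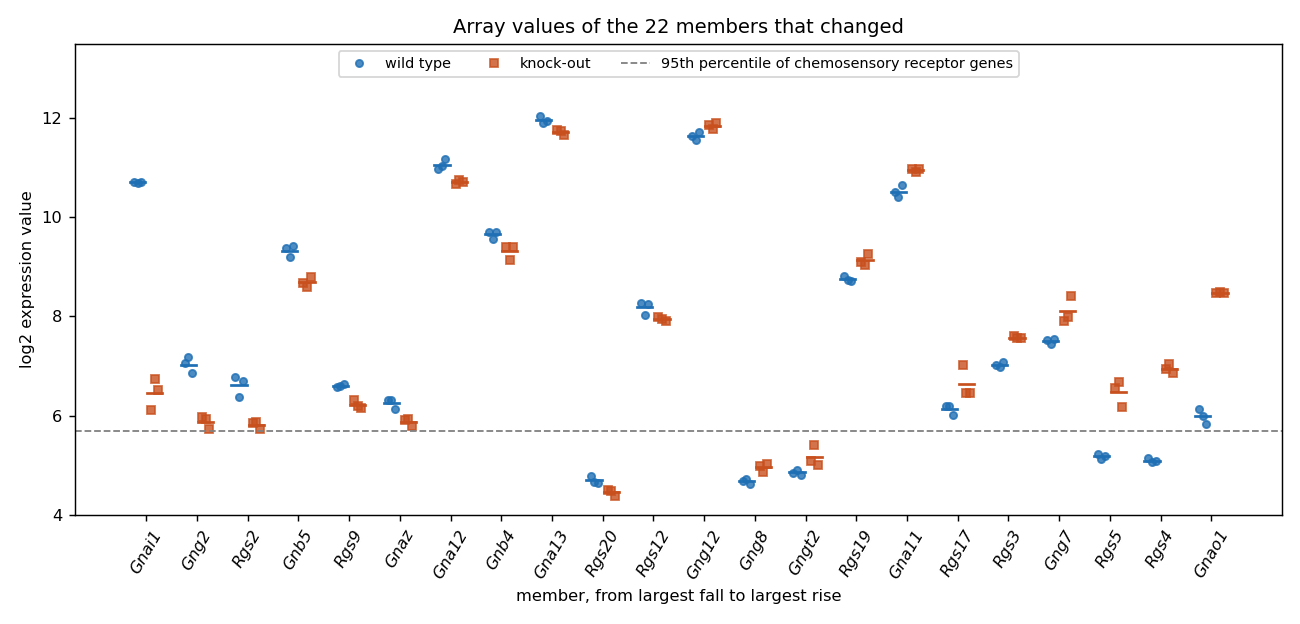
Log2 expression value (y axis) of each array for the 22 members that changed, ordered from the largest fall to the largest rise (x axis); blue circles are wild-type and orange squares knock-out arrays, short bars are means (n = 3), and the dashed line marks the background level of 5.68. Gnai1 fell from near 10.71 to between 6.12 and 6.74, Gnao1 rose to near 8.48, and Rgs20, Gng8 and Gngt2 stayed under the dashed line on every array.

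The promoters of the 5 members that changed at least 2-fold are printed here because these genes carry the main differences and 2 of them, Rgs4 and Rgs5, are neighbours that rose together. The sequences are RefSeq's, build GRCm38.p6, 300 bases each, ending 50 bases after the gene's start and written 5′ to 3′ on the gene's strand. They lie at chr5:18360364-18360663 (minus strand) for Gnai1, chr8:93810588-93810887 (plus strand) for Gnao1, chr1:169747593-169747892 (minus strand) for Rgs4, chr1:169655251-169655550 (plus strand) for Rgs5 and chr14:19976644-19976943 (minus strand) for Gng2. Capitals mark matches, on either strand, to the GC box (GGGCGG), the CCAAT box (CCAAT), the TATA box (TATAAA) and the core of the cAMP response element (TGACG).
Gnai1: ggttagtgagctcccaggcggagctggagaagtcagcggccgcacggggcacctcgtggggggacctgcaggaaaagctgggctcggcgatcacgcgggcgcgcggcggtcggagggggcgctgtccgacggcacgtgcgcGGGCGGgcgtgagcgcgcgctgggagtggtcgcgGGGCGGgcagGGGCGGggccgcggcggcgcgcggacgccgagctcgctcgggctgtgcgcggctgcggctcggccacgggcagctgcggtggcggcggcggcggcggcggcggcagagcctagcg
Gnao1: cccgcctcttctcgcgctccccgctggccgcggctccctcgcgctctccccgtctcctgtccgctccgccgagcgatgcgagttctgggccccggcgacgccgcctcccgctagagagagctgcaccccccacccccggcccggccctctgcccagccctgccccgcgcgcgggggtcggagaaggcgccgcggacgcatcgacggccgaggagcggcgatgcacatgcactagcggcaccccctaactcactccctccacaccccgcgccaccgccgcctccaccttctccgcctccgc
Rgs4: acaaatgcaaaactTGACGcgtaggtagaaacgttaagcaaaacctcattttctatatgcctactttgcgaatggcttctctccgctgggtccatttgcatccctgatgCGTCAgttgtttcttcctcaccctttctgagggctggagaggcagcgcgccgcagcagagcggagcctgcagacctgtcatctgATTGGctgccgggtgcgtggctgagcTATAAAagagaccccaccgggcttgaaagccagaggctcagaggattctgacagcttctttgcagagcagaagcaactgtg
Rgs5: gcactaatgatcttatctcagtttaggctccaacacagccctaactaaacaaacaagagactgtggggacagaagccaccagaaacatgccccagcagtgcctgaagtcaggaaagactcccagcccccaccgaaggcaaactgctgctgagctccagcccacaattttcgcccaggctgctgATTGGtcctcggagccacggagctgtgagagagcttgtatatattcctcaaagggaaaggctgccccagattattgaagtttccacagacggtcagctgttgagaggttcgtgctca
Gng2: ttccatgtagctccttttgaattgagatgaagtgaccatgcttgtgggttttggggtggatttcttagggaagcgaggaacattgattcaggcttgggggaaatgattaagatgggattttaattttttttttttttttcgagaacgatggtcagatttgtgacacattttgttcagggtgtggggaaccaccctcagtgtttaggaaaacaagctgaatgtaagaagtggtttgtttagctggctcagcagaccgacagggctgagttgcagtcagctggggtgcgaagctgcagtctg

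The Gnai1 window was 80.0% G and C with 53 CpG dinucleotides and 3 GC boxes. The Gnao1 window was 76.3% G and C with 42 CpG and held none of the 4 motifs. The Rgs4 window, at 53.0% G and C with 13 CpG, held a TATA box, a CCAAT box and 2 cores of the cAMP response element. Its neighbour Rgs5, at 52.3% with 6 CpG, held a CCAAT box only, and the Gng2 window, at 44.7% with 5 CpG, held none. Of all 32851 RefSeq windows of this length 35.7% held GGGCGG, 37.4% CCAAT, 13.6% TATAAA and 20.8% TGACG. Of the 48 windows that belong to the 38 members matched by gene identifier, 50.0%, 29.2%, 12.5% and 20.8% did. A match is a description of the letters and no evidence of a site in use.

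CpG content varied widely among the members, and no test of it was run. A gene with several windows was given the highest count among them. The median over genes was 27 CpG (range 5 to 53) for the 25 matched members above background in a genotype. For the 13 that were not it was 7 (range 0 to 34), so the ranges overlapped. The 18 matched members that changed had a median of 25, and the 8 that were above background and not called had 28. All 27025 genes of the table had a median of 8.

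Among the alpha subunits, 6 of 15 changed (40.0%, beside 31.6% of all genes): Gnao1 and Gna11 rose, and Gnai1, Gnaz, Gna12 and Gna13 fell. The median difference of the class was -0.10. Gnai1, an inhibitor of adenylyl cyclase, was at 10.71, 10.70 and 10.71 on the wild-type arrays and at 6.12, 6.74 and 6.51 on the knock-out arrays. Every knock-out array lay far under every wild-type array, and the 3 wild-type arrays hardly differed. It fell by 4.25 (SE 0.13, adjusted p = 2.80e-09), or 19.1-fold, and its knock-out mean of 6.45 ± 0.313 (SD, n = 3) was still above background. Among all genes it ranked at 11 in order of fall.

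Gnao1 encodes Go, known as an abundant G protein of neurons that also inhibits voltage-gated calcium channels. Its values were 6.13, 5.99 and 5.83 in wild type and 8.48, 8.49 and 8.48 in knock-out. Here the knock-out arrays were the higher ones, with no overlap. The rise was 2.50 (SE 0.08, adjusted p = 4.05e-09), or 5.64-fold, from a mean of 5.99 ± 0.153 to one of 8.48 ± 0.00658 (SD, n = 3). Its wild-type arrays were above background but close to it, which may limit the size of this fold. Within the Gi/o family, then, the alpha subunit with the largest fall and the one with the largest rise of all members stood side by side.

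The neuron markers measured next to Gnao1 were mostly at background. Tubb3, Rbfox3, Snap25, Elavl4, Gap43 and Dcx, 6 of the 9 on the list, were not above it. Map2 rose by 0.90, Syt1 fell by 0.92 and Gap43 fell by 0.50, and the list's summed level on a linear scale was 1434 to 1562 in wild type and 2224 to 2415 in knock-out. Map2, by far the brightest marker of the list at 10.05 and 10.95, was the only one that rose and carried the rise of this sum. The list's median difference was -0.09. The part of neuron-like cells in the rise of Gnao1 was not tested.

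The other Gi/o genes moved little. Gnaz, whose product Gz resists pertussis toxin, fell from 6.25 to 5.88, by 0.37 (SE 0.07, adjusted p = 0.00297). Gnai2, the broadly expressed Gi of most tissues, was at 12.61 and 12.51, a difference of -0.10 (SE 0.08, adjusted p = 0.435), and its arrays overlapped. Gnai3 was at 11.31 and 11.15, a difference of -0.17 (SE 0.07, adjusted p = 0.0891); its arrays did not overlap, and it passed only with arrays centred (adjusted p = 0.0462). The transducins Gnat1 (rods), Gnat2 (cones) and Gnat3 (gustducin of taste cells) were not above background, like all 7 measured photoreceptor markers, Gnat1 and the rod gamma subunit Gngt1 among them.

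Gna11, one of the activators of phospholipase C beta, rose from 10.52 to 10.96, by 0.44 (SE 0.07, adjusted p = 0.000989). Gnaq, its closest relative, was at 10.53 in wild type and 10.36 in knock-out, a difference of -0.17 (SE 0.07, adjusted p = 0.0931). The arrays of Gnaq did not overlap, and its adjusted p was 0.0486 without knock-out replicate 3 and 0.0482 with arrays centred. Gna14 and Gna15, the other two Gq genes, were not above background. The difference between the responses of Gna11 and Gnaq was not tested.

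Both genes of the G12 family fell, as did 17.6% of all genes. Gna12 went from 11.06 to 10.71, by 0.35 (SE 0.07, adjusted p = 0.00345). Gna13 went from 11.97 to 11.72, by 0.25 (SE 0.07, adjusted p = 0.0153). The call of Gna13 was lost without wild-type replicate 1 (adjusted p = 0.0618) and without knock-out replicate 3 (adjusted p = 0.0592). Gnal, the alpha subunit of olfactory neurons and striatum known as Golf, was not above background.

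**Figure D2:**
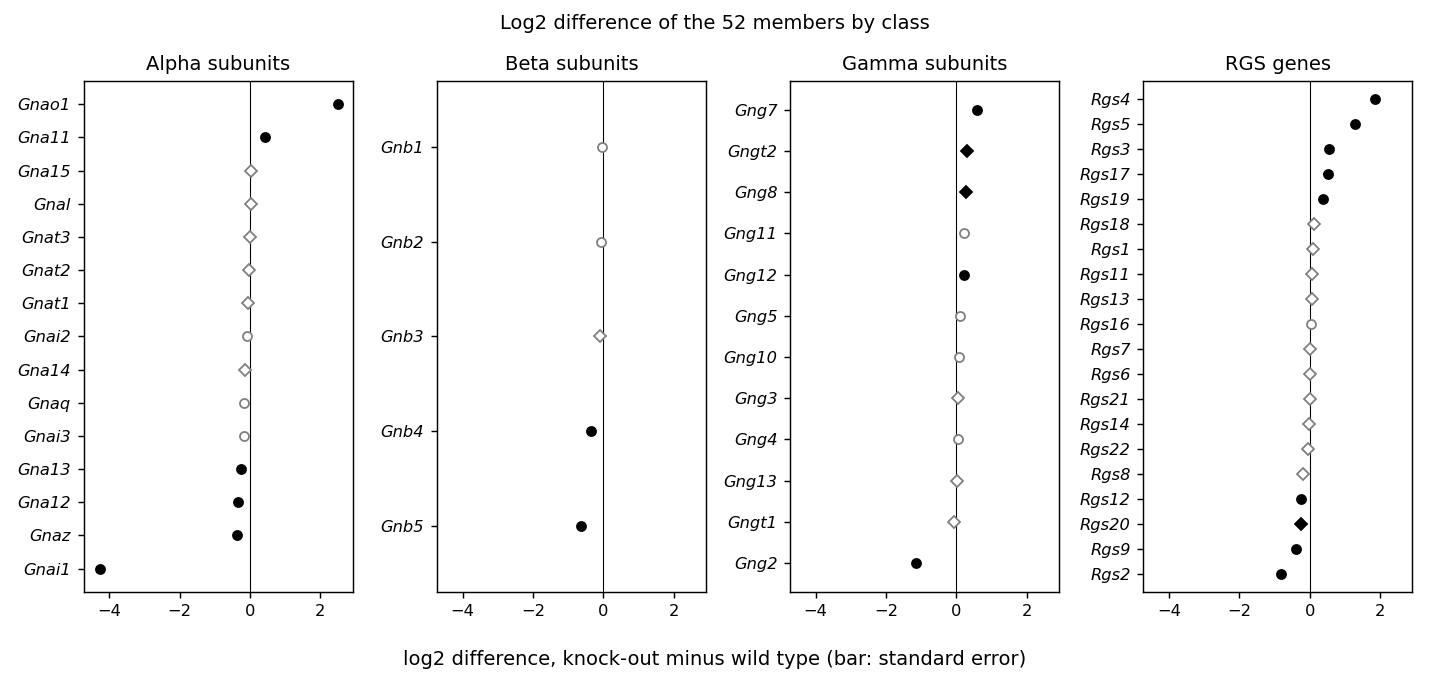
Log2 difference, knock-out minus wild type (x axis), of all 52 members in 4 panels by class, each sorted by difference; bars are standard errors and are mostly hidden by the symbols. Filled symbols passed the test and open ones did not, and circles were above background in a genotype while diamonds were not; Gnai1 at -4.25 and Gnao1 at 2.50 stand outermost, and no beta subunit lies to the right of 0.

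Of the beta subunits 2 of 5 changed (40.0%, beside 31.6% of all genes). Both, Gnb5 and Gnb4, fell, as did 17.6% of all genes, and the median difference was -0.09. Gnb5, an atypical beta subunit that pairs with RGS proteins of the R7 family in place of a gamma subunit, was at 9.37, 9.20 and 9.42 in wild type and at 8.67, 8.59 and 8.80 in knock-out. It fell by 0.65 (SE 0.08, adjusted p = 0.000135), with every knock-out array under every wild-type array. Gnb5 lies on chromosome 9, whose expressed genes had a median difference of -0.20, the same direction. With the chromosome medians subtracted, Gnb5 fell by 0.45. Gnb4 fell from 9.66 to 9.32, by 0.34 (SE 0.08, adjusted p = 0.0109).

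Gnb1 and Gnb2, the common beta subunits, did not pass. Gnb1 was at 13.40 and 13.35 (difference -0.05, SE 0.06, adjusted p = 0.687) and Gnb2 at 11.13 and 11.08 (difference -0.05, SE 0.07, adjusted p = 0.652). Their arrays overlapped between the genotypes. The cone subunit Gnb3 was not above background.

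Among the gamma subunits, which anchor the beta-gamma pair in the membrane by a lipid group, 5 of 12 changed (41.7%). The share among all genes was 31.6%. Gng7, Gng12, Gng8 and Gngt2 rose and Gng2 fell. The median difference of the class was 0.08. Gng2, a widely expressed gamma subunit, was at 7.06, 7.17 and 6.85 in wild type and at 5.96, 5.92 and 5.72 in knock-out. All knock-out arrays lay lower and close to background. It fell by 1.16 (SE 0.10, adjusted p = 6.78e-06), or 2.23-fold, from 7.03 ± 0.165 to 5.87 ± 0.132 (SD, n = 3). Gng2 lies on chromosome 14, whose expressed genes had a median difference of 0.41, the opposite direction. With the chromosome medians subtracted, it fell by 1.57.

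Gng7, known from the striatum where it pairs with Golf, was at 7.53, 7.44 and 7.54 in wild type and at 7.90, 7.99 and 8.41 in knock-out. It rose by 0.60 (SE 0.12, adjusted p = 0.00266), with knock-out replicate 3 the highest array. Gng12 rose by 0.20 from 11.65 to 11.85 (SE 0.07, adjusted p = 0.0441). Its call was lost without wild-type replicate 1 or 2 or knock-out replicate 1 or 3, with adjusted p-values of 0.0933 to 0.148. Centring each array on its median also ended the call (adjusted p = 0.0755). Gng7, the other gamma gene that rose above background, passed in all of these fits.

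A pair of gamma genes changed under the background level, where a difference cannot be read as a level. Gng8, known from olfactory and vomeronasal neurons, was at 4.67 and 4.96 (difference 0.28, SE 0.07, adjusted p = 0.00888). Gngt2, the cone gamma subunit, was at 4.85 and 5.16 (difference 0.31, SE 0.10, adjusted p = 0.0376). Knock-out replicate 2 was its highest array at 5.41, and without it the difference was 0.19 and the adjusted p 0.0955; it was also lost without wild-type replicate 1, 2 or 3 or knock-out replicate 1, over a range of 0.0506 to 0.106, and with arrays centred (0.0733). Without wild-type replicate 1, wild-type replicate 2 or knock-out replicate 1, the class had 3 changed genes rather than 5.

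Gng5, a broadly expressed gamma subunit, was at 10.83 and 10.92 (difference 0.09, SE 0.08, adjusted p = 0.476). RefSeq lists a pseudogene of it, Gng5-ps, so its value may hold RNA of both. The numbers of the members' probe sets mostly follow the order of the chromosomes. That of Gng5 lies outside the run of chromosome 3, which holds Gng5. Whether it measures Gng5 was not tested. Gng11 was at 5.70 and 5.92 (difference 0.21, adjusted p = 0.10) with no overlap between the genotypes. It passed with the replicate block (adjusted p = 0.0356), without knock-out replicate 2 (0.0440) and with chromosome medians subtracted (0.0217). Gng4 and Gng10 were above background and did not pass. Gng3, Gng13 and Gngt1, known from neurons, taste cells and rods, were not above background.

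Of the 20 RGS genes, 9 changed (45.0%, beside 31.6% of all genes), 5 rising and 4 falling, with a median difference of 0.03. Rgs4, Rgs5, Rgs3, Rgs17 and Rgs19 rose, and Rgs2, Rgs9, Rgs20 and Rgs12 fell. As a description, 8 of the 9 RGS genes with a mean over the 6 arrays above background changed (88.9%), all but Rgs16, beside 49.3% of all genes past that filter. Rgs4 and Rgs5 passed it only through the knock-out arrays, so their change decided their place in this count. In the R4 family, the small RGS proteins made of little more than the catalytic domain, 3 rose and 1 fell of 10. Among all genes 14% rose and 17.6% fell.

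Rgs4, a GTPase-activating protein for Gi/o and Gq known from neurons and smooth muscle, was at 5.14, 5.05 and 5.08 in wild type and at 6.94, 7.03 and 6.86 in knock-out. The wild-type arrays were all under background and the knock-out arrays all above it. The rise was 1.85 (SE 0.07, adjusted p = 9.74e-09), or 3.61-fold, from 5.09 ± 0.0452 to 6.94 ± 0.0852 (SD, n = 3). Since the wild-type level was at background, background limits the size of this fold.

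Rgs5, known as a marker of pericytes, was at 5.22, 5.13 and 5.18 in wild type and at 6.55, 6.69 and 6.17 in knock-out. Again every wild-type array was under background and every knock-out array above it. The rise was 1.29 (SE 0.12, adjusted p = 1.20e-05), or 2.45-fold, from 5.18 ± 0.0474 to 6.47 ± 0.269 (SD, n = 3), and background limits the size of this fold too. Of 11 pericyte and smooth muscle markers 5 rose, among them Cnn1 by 4.65 and Anpep by 2.31, and 1 fell. Kcnj8, Abcc9 and Des were not above background. The list's summed level on a linear scale was 15551 to 17937 in wild type and 22675 to 24894 in knock-out. The part of such cells in the rise of Rgs5 was not tested.

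Rgs2, which acts mainly on Gq, was the R4 gene that fell. It was at 6.78, 6.38 and 6.69 in wild type and at 5.85, 5.88 and 5.72 in knock-out, the latter close to background. It fell by 0.80 (SE 0.10, adjusted p = 0.000144). Rgs3 rose from 7.02 to 7.57, by 0.55 (SE 0.06, adjusted p = 5.19e-05), on its brighter probe set. The dimmer probe set, at 5.22 and 5.12, was under background and differed by -0.09 (SE 0.07, adjusted p = 0.392 over all probe sets), so the probe sets disagree. With the mean of both probe sets the rise was 0.23 (adjusted p = 0.0117). Probe set numbers of the members mostly run in the order of the chromosomes. That of the brighter probe set lies outside the run of chromosome 4, which holds Rgs3. Whether it measures Rgs3 was not tested.

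The R7 family, the partners of Gnb5, had 1 member above background. Rgs9, known from retina and striatum, fell from 6.60 to 6.22, by 0.39 (SE 0.07, adjusted p = 0.00111). Rgs6, Rgs7 and Rgs11 were not above background and did not pass. Rgs7bp and Rgs9bp, which anchor R7 proteins to membranes, were not above background either. Gnb5 and Rgs9 both fell, as did 17.6% of all genes, and Rgs9 was the sole R7 gene detected. A link between these falls was not tested.

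All 3 genes of the RZ family changed, beside 31.6% of all genes. Rgs19, also called GAIP, rose from 8.75 to 9.14, by 0.38 (SE 0.07, adjusted p = 0.00253). Rgs17 was at 6.19, 6.19 and 6.01 in wild type and at 7.01, 6.45 and 6.45 in knock-out, a rise of 0.51 (SE 0.14, adjusted p = 0.0170). Its knock-out replicate 1 stood above the others, and without it the rise was 0.32; without wild-type replicate 3 the call was lost (adjusted p = 0.0658). Rgs20, at 4.69 and 4.45, was under background in both genotypes; its difference was -0.24 (SE 0.07, adjusted p = 0.0186), lost without wild-type replicate 1 (adjusted p = 0.0737) and knock-out replicate 3 (0.0709).

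Rgs12, a large protein with a GoLoco motif that binds inactive Gi, fell from 8.19 to 7.95, by 0.23 (SE 0.07, adjusted p = 0.0360). This call was lost when wild-type replicate 1 or 3 or any knock-out replicate was left out, with adjusted p-values of 0.0622 to 0.127, with an intensity trend (0.0507) and with chromosome medians subtracted (0.239). Its relative Rgs14 was not above background. Rgs8 did not pass (-0.19, adjusted p = 0.0749), although its arrays did not overlap; it passed with the replicate block (0.0479), with arrays centred (0.0481), with an intensity trend (0.0488) and without wild-type replicate 3 (0.0362), at a level under background. Rgs1, Rgs13, Rgs18, Rgs21 and Rgs22 were not above background, nor were 7 of 9 leukocyte and platelet markers, the cells in which Rgs1, Rgs13 and Rgs18 are best known.

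The 30 members that did not pass differed by -0.19 to 0.21, with SEs of 0.06 to 0.09, and their lowest adjusted p was 0.0749. Of the 30, 20 were not above background, and 6 had arrays that did not overlap: Gnai3, Gnaq, Gng11, Rgs8, Rgs11 and Rgs18. Among all genes, 2185 of the 13642 that did not pass had arrays that did not overlap, a similar share.

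**Figure D3:**
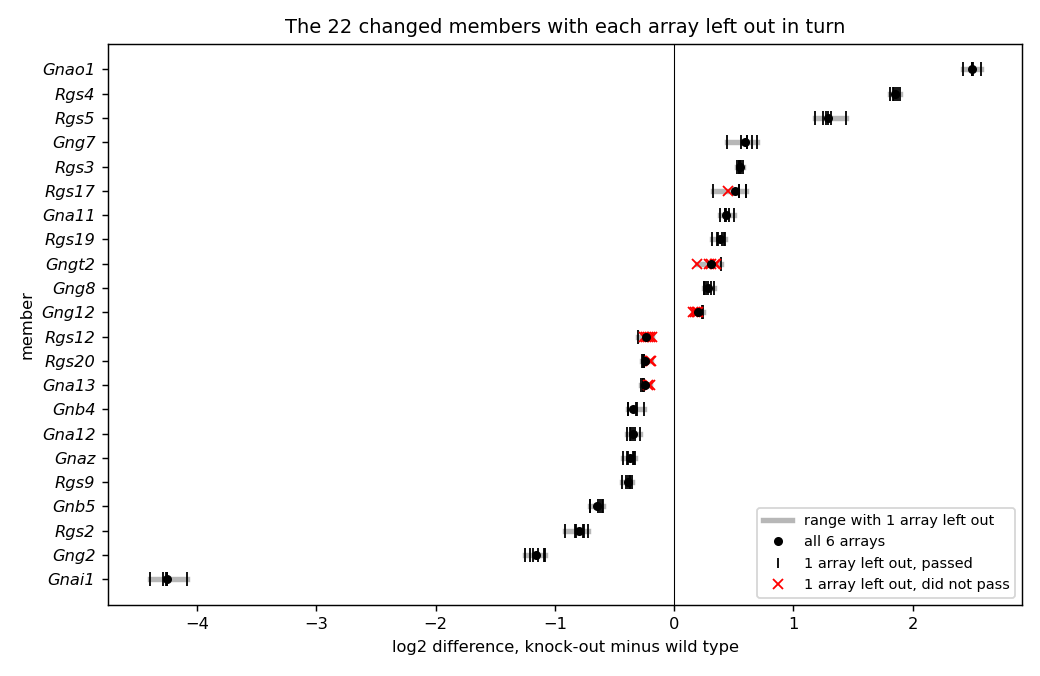
Log2 difference, knock-out minus wild type (x axis), of the 22 changed members (y axis): black dots are the values from all 6 arrays, grey bars the range with each array left out in turn, black ticks the fits that passed and red crosses those that did not. No member crosses 0; Gnai1, Gnao1, Rgs4, Rgs5 and Gng2 passed in each of these fits, and the crosses fall on Gna13, Gng12, Gngt2, Rgs12, Rgs17 and Rgs20.

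Calls of 15 of the 22 changed members, Gnai1, Gnao1, Gna11, Gna12, Gnaz, Gnb5, Gng2, Gng7, Gng8, Rgs2, Rgs3, Rgs4, Rgs5, Rgs9 and Rgs19, kept their direction and passed in each of the 16 alternative fits in which they were tested. The other 7 were Gna13, Gnb4, Gng12, Gngt2, Rgs12, Rgs17 and Rgs20. Gnb4 was lost only with the chromosome medians subtracted (difference -0.20, adjusted p = 0.108). The fits for Rgs3 used its brighter probe set or the mean of both, not the dimmer one alone.

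Around the members, 45 of 90 measured receptor, effector and regulator genes changed (50.0%), 23 rising and 22 falling, beside 31.6% of all genes. Of the adenylyl cyclases, which make cAMP, 5 of 10 rose and 1 fell. Adcy4 rose by 0.58, from a wild-type level under background, and Adcy3 by 0.53, and Adcy1, under background, fell by 0.41. Among the phosphodiesterases that break cAMP down, 4 of 10 rose and 3 fell. Pde3b fell by 3.16 from 9.06 to 5.89 (SE 0.09, adjusted p = 2.21e-09), while its paralog Pde3a rose by 1.42 and Pde8b by 1.45, both from wild-type levels under background, which limits these differences.

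Protein kinase A, the main effector of cAMP, had 3 of 5 measured subunits fall and none rise, while 17.6% of all genes fell. They were the regulatory subunits Prkar2b (-0.92), Prkar1b (-0.71) and Prkar2a (-0.36). Of the 4 phospholipase C beta genes, the effectors of Gq, Plcb4 (0.53) and Plcb3 (0.21) rose and Plcb1 fell by 1.60 to a level under background. The 4 GIRK channel genes, opened by beta-gamma in neurons and heart, were not above background, and their adjusted p-values (limma) were 0.524 or higher.

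Of the 9 measured receptor kinases and arrestins, which switch receptors off, 3 changed, a share near the 31.6% of all genes. These 3 fell: Grk5 by 1.22, Arrb2 by 0.94 and Arrb1 by 0.25. Among 20 other regulators and chaperones 4 rose and 1 fell. Gpsm1, a GoLoco protein of spindle orientation that binds inactive Gi, rose by 0.98, and Axin2 and Gnb1l rose by 0.47 and 0.40. Of the 23 lipid, endothelin, protease, purine and related receptors 7 rose and 8 fell. S1pr1 rose by 2.59 and S1pr3 by 2.50, the receptors of sphingosine 1-phosphate, and P2ry1, an ADP receptor, by 1.36. The wild-type means of S1pr3 (5.50) and P2ry1 (5.67) were under background, which limits both differences. Ptger4, a prostaglandin E receptor named after its values were seen, fell by 1.33. Of 8 endothelial markers Erg rose by 4.60 and Tek by 3.14, Kdr fell by 0.44, and 6, among them the defining Pecam1 and Cdh5, were not above background. Their summed level on a linear scale was 257 to 281 in wild type and 1383 to 1545 in knock-out. Erg and Tek carried the rise of this sum. Their wild-type means (5.37 and 5.07) were under background, which limits their differences too. The part of this sum in the receptor changes was not tested.

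**Figure D4:**
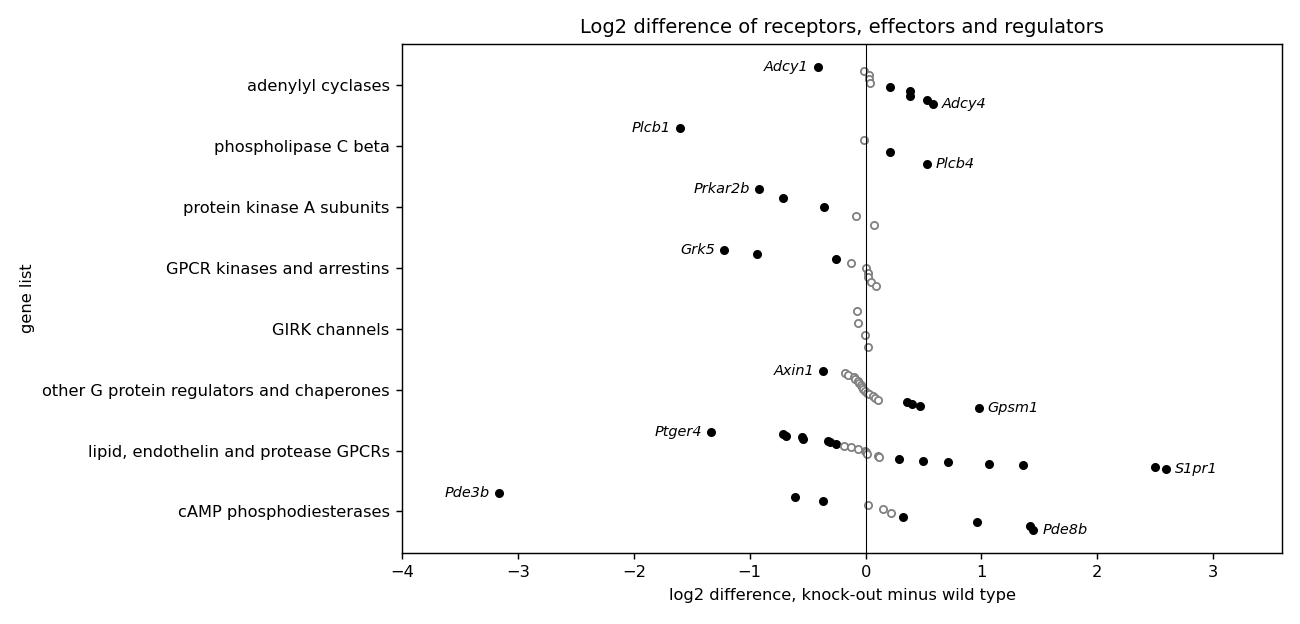
Log2 difference, knock-out minus wild type (x axis), of measured receptor, effector and regulator genes by list (y axis); filled dots passed the test, open ones did not, and the outermost passing gene on each side is named. Pde3b at -3.16 and S1pr1 at 2.59 lie farthest out, while all 4 GIRK channel genes sit near 0.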

How the data were processed

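Total RNA of 6 samples was hybridized to 6 arrays of the type Mouse Gene 1.0 ST (Affymetrix); biotinylated cDNA was made from 250 ng, per the labels' protocols. The authors deposited 1 log2 expression value per probe set and array; the log base was judged from the range. The submitters' processing notes name Partek (role and version not given in the sources used here). How background was corrected and arrays were normalized is likewise not given. The deposited values were used unchanged. Of 35556 probe sets, 21789 had 1 gene symbol, 1621 had several and 12146 none in GEO's platform annotation. Of a gene's several probe sets, as for 999 genes, the one with the highest mean was kept. The number of arrays limits the precision.

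The test of knock-out against wild type used lmFit and eBayes of limma 3.58.1 (R 4.3.3; no trend, 4 residual degrees of freedom), adjusted by Benjamini-Hochberg over 19938 genes. On simulated data with 3 arrays per genotype, 76% of 50 genes shifted by 0.5 (log2) and 92% of 50 shifted by 1 were recovered, with 10 false calls. The simulation drew independent noise and shifted far fewer genes than changed here, so these shares need not hold for the real arrays. The members, lists and background level were chosen with earlier results of these data known. Every member is named; those that passed and changed at least 2-fold have all array values, other passing members have means, and Gnaq, Gnb1, Gnb2, Gng5, Gnai2 and Gnai3 have values in any case. Array values of Gnb5, Gng7, Rgs2 and Rgs17 were added after they were seen. Of each list up to 3 passing genes with the largest difference are named; 1 list is counted in the total and not reported here.

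The titles number the replicates 1 to 3 in each genotype. Across genes, which are not independent replicates, an array's deviation from its genotype's mean correlated with that of the same-numbered array at 0.19 to 0.29, and with those of other numbers at -0.18 to -0.0047. The deviations of a genotype cancel out, so positive values at the same number push the others down. The correlations are weak and the labels state no pairing, so the numbers may pair the arrays, which is not settled. The main fit did not pair them. With the replicate block 24 members passed rather than 22, adding Gng11 and Rgs8. The other alternatives were quantile normalization, centring, filters on dim genes, other probe set rules, an intensity trend, array weights, leaving out each array, stricter thresholds and, chosen after seeing the data, subtraction of chromosome medians.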

Additional observations from a re-analysis of the deposited data

How the results depend on the processing

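The count of 22 changed members was 17 to 21 with an array left out and 19 to 24 in the other fits; 15 passed at an adjusted p under 0.01 and 5 also at 2-fold. At 2-fold, 2 alpha, 0 beta, 1 gamma and 2 RGS genes and 10 of the 45 receptor, effector and regulator genes were left. Beta genes numbered 1 rather than 2 at 0.01 and with chromosome medians subtracted. Gamma genes numbered 3 rather than 5 with arrays centred, with the filter at background (which leaves fewer genes) and at 0.01, and 3 to 5 with an array left out. With chromosome medians subtracted, Gnai2 (0.098), Gnaq (0.084), Gnb1 (0.059) and Gnb2 (0.046), none of which passed, turned to a positive sign; Gnb2 ran from -0.095 to 0.0058 with an array left out. The causes were not tested. The replicate block changed no other call among the members than Gng11 and Rgs8. Array signal limits what the data can show of the 23 members not above background, of which 3 passed.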

Other observations

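Some members lie next to each other in the genome, and 13 pairs of members were neighbours in gene order with at most 1 protein-coding gene between them. In 2 pairs both genes changed and moved the same way: Rgs5 and Rgs4 on chromosome 1 rose by 1.29 and 1.85, and Rgs9 and Gna13 on chromosome 11 fell by 0.39 and 0.25. In 3 pairs a single gene changed. Gnai1 fell by 4.25 next to Gnat3 (0.01), Gna11 rose by 0.44 next to Gna15 (0.03), and Rgs2 fell by 0.80 next to Rgs13 (0.06), where each of the neighbours was not above background. In the other 8 pairs neither gene passed, Gnaq and Gna14, Gnat2 and Gnai3, and Rgs8 and Rgs16 among them. The 11 members on chromosome 1 are all RGS genes.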
